A study of Mus musculus with 32 samples.

Results

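The histone genes of the replication clusters were taken as every gene whose GENCODE M21 symbol starts with Hist1h, Hist2h, Hist3h or Hist4h, and the rule found 70 genes among the 54532 in the count table of mouse striatum. They comprised 6 genes for the linker histone H1, 20 for H2A, 19 for H2B, 12 for H3 and 13 for H4, and 67 of them were annotated as protein-coding. On GRCm38, 55 of the 56 Hist1 genes lay between 21715763 and 23934851 of chromosome 13, the remaining Hist1 gene being a pseudogene elsewhere on the chromosome. The 10 Hist2 genes lay between 96219865 and 96270132 of chromosome 3, the 3 Hist3 genes between 58948920 and 58956830 of chromosome 11, and Hist4h4 stood alone on chromosome 6.

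Striatal RNA was sequenced from 32 mice at 6 months of age, 8 in each of 4 genotypes, to ask whether loss of the mismatch repair gene Msh3 alters the transcriptional changes of a Huntington's disease model. The groups were wild-type mice (WT), mice homozygous for an Msh3 knockout (Msh3-/-), zQ175 mice, which carry a knock-in Htt allele with a highly expanded CAG repeat, and zQ175 mice that were also homozygous for the knockout (zQ175:Msh3-/-). Each group held 4 males and 4 females, except zQ175:Msh3-/- with 5 males and 3 females. The knockout was made by Cas9 with guides to a pair of Msh3 exons and, like the knock-in, was present in all tissues, on a C57BL/6J background, so the whole striatum with all its cell types was compared. Libraries were made after selection of poly(A) RNA and read from both ends for 150 bases, and the deposited counts summed to between 12359347 and 25030335 reads per mouse.

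Nucleosomes are built from the core histones H2A, H2B, H3 and H4, and H1 binds the linker DNA between them. Most genes of these clusters are transcribed in S phase, when new DNA has to be packed. Their mRNAs typically have no introns and no poly(A) tail, ending instead at a short stem-loop that the stem-loop binding protein Slbp holds and that the U7 small nuclear RNA helps to process. Cells that have left the cell cycle, such as neurons, use replacement histones from genes outside the clusters and can make polyadenylated forms of some cluster genes by reading past the stem-loop. A poly(A)-selected library therefore measures the polyadenylated part of this RNA together with whatever tail-less RNA was carried through.

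The stem-loop sequences are shown because they mark where the tail-less mRNA ends, and because the genes that were detected differ in how far their annotated transcript continues after that point. A fully paired loop, with 6 paired bases on each side of 4 unpaired ones, was found in the annotated transcripts of 44 genes, 21 to 58 bases after the stop codon. The sequence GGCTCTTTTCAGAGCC was present in 26 genes, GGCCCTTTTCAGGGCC in 7 and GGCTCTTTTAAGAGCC in 6. The loop of each of 6 genes is given 5′ to 3′ from the GENCODE M21 transcripts, with the 16 bases of the stem-loop in capitals:
Hist1h1c: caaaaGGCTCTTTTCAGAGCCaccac
Hist3h2a: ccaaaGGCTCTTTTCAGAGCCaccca
Hist2h3c2: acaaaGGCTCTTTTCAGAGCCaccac
Hist2h2aa1: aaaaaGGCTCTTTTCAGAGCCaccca
Hist1h2ap: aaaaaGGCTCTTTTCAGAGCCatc
Hist1h4i: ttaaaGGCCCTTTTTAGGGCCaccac
The annotated transcript of Hist1h2ap ended 3 bases after the loop and those of Hist2h2aa1 and Hist2h2aa2 ended 35 bases after it, whereas those of Hist2h3c2, Hist1h1c and Hist3h2a ran on for 377, 840 and 1643 bases. The loop of Hist1h4i differed from the others in the list within the stem and the loop. No such loop was found for Hist1h2bc, an H2B gene whose annotated mRNA is spliced from 2 exons with 742 bases after the coding part, nor for Hist2h2be. For 17 of the 23 coding genes without a loop, the annotation ended under 50 bases after the coding part, and for all of these but Hist1h1a (48 bases) and Hist2h3b (37 bases) it ended at most 2 bases after it, before the positions at which the loops of other genes began.

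Few of the cluster genes were measured above a low level in adult striatum. Together the 70 genes took 0.0219% of all counts. Of these genes, 21 had a read in every mouse and 5 had none in any mouse (Hist1h2aa, Hist1h2ah, Hist1h2an, Hist1h2ao and Hist2h3c1). Hist2h3c1 shares all its 75-base stretches with other genes, Hist1h2ao 93.1%, Hist1h2ah 91.5%, Hist1h2an 84.6% and Hist1h2aa 17.4%. For those that share most of their sequence, a count of 0 may depend on how shared reads were assigned. After length normalization, as TPM, 10 genes reached a mean of 10 and 20 a mean of 1. Hist1h2bc was highest at 105 ± 12.7 TPM (SD, n = 32), followed by Hist2h2aa2 at 74.8 ± 22.1, Hist3h2ba at 64.5 ± 5.31, Hist1h1c at 55.1 ± 10.0, Hist2h2aa1 at 50.3 ± 15.9 and Hist3h2a at 42.9 ± 4.37 TPM. These spreads were over mice of all 4 genotypes, and the neighbours Hist1h1c and Hist2h2aa1 differed by less than the SD of either. The 6 genes with most reads held 78.6% of all reads on the cluster genes.

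The level went with the length of the annotated 3′ end. Among the 25 genes with 200 or more annotated bases after the coding part, 14 passed the filter on low counts, the median of the mean levels was 1.41 TPM, and they held 83.7% of the reads on the cluster genes. Among the 25 genes with 50 or more but under 200 bases, 4 passed and the median was 0.313 TPM. Among the 17 genes with fewer than 50 bases 1 passed, the H4 gene Hist1h4k at 11.2 ± 3.36 TPM, and the median was 0.0939 TPM. Of the 22 genes whose transcript ran 100 or more bases past the stem-loop 12 passed, against 4 of the 22 that ended sooner. The annotation is itself built from sequenced RNA, so length and level do not come from separate evidence. The filter and the share of reads rest on counts, which, unlike TPM, are not corrected for transcript length. Most genes with fewer than 50 bases shared 50% or more of their sequence with other genes, against a minority of those with 200 or more. Hist1h1a and Hist1h1b, also in the shortest class, shared none and were low too. The part of shared-read assignment in these differences was not tested. The poly(A) signal AATAAA lay in the last 50 bases of 12 of the 25 genes with the longest 3′ ends, Hist1h1c, Hist3h2a, Hist3h2ba, Hist2h2be and Hist2h4 among them, and of 3 of the 25 genes with intermediate ones.

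**Figure D1:**
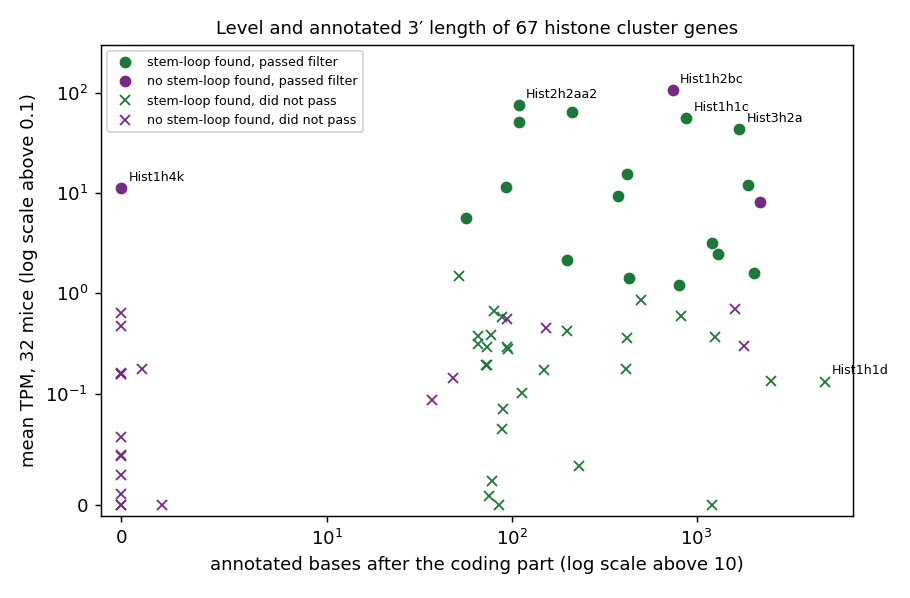
Mean TPM over 32 mice against the annotated bases after the coding part, for the 67 protein-coding histone cluster genes, with both axes on log scales away from 0. Circles passed the filter on low counts and crosses did not, and green marks a stem-loop found. Hist1h2bc at 105 TPM and Hist2h2aa2 at 74.8 TPM are the highest, and most genes below 1 TPM have short annotated ends or none.

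The linker histone genes differed widely. Hist1h1c had 16.5% of all reads on the cluster genes and Hist1h1e, a second replication-dependent H1, reached 3.14 ± 1.01 TPM. Hist1h1d, whose annotation runs 4884 bases past the stem-loop, was at 0.13 ± 0.06 TPM, Hist1h1a at 0.14 ± 0.16, Hist1h1b at 0.16 ± 0.19 and the testis form Hist1h1t at 0.04 ± 0.06 TPM. The testis forms of the core histones were also near 0, with 1 read in all 32 mice for Hist1h2ba and none for Hist1h2aa. Hist4h4 was at 0.13 ± 0.10 TPM and the pseudogene Hist3h2bb-ps at 0.65 ± 0.50 TPM. None of these except Hist1h1c and Hist1h1e passed the filter.

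Sequence shared between copies limits what a single count can say. Over windows of 75 bases, the median gene shared 44.0% of its annotated sequence with other genes, 5 genes shared all of it and 5 none. How reads that match several copies were assigned is not given in the sources used here. Of the 19 genes tested, 5 shared 50% or more: Hist2h2aa1 and Hist2h2aa2 (100%), Hist1h2ap (92.7%), Hist1h4k (68.1%) and Hist2h3c2 (62.6%). Hist1h2bc shared 27.1%, mostly with Hist1h2bg, Hist3h2a 30.6%, mostly with the overlapping Trim17, and Hist1h1c 6.7%. Hist2h2be and Hist2h4 shared none.

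The H2A pair Hist2h2aa1 and Hist2h2aa2 are nearly alike in sequence, and mice high in either gene were low in the other. All 454 of the 75-base stretches of Hist2h2aa2 lie in Hist2h2aa1, which has 512, and the remaining stretches of Hist2h2aa1 lie in Gm20633. In the zQ175 mice Hist2h2aa1 ranged from 1.26 to 21.2 CPM, reads per 1000000 counts after TMM scaling, with a median of 14.4, and Hist2h2aa2 from 6.49 to 26.6 with a median of 12.4. The mouse lowest in the former, zQ175 F2, was highest in the latter, and zQ175 M4 stood at the opposite ends. Within genotypes the coefficient of variation was 30.0% for Hist2h2aa1 and 31.8% for Hist2h2aa2, but 9.31% for their sum. The sum was 29.8 ± 2.87 CPM in WT, 30.1 ± 1.85 in Msh3-/- and 28.3 ± 2.41 in zQ175 mice, and zQ175:Msh3-/- mice had 28.6 ± 3.44 (SD, n = 8 each). Tested as a single count, the pair had a log2 difference of −0.07 (SE 0.06, edgeR adjusted p = 0.447) between zQ175 and WT mice and −0.07 (SE 0.06, edgeR adjusted p = 0.456) between zQ175:Msh3-/- and Msh3-/- mice. In the counts over 19 genes below, the pair still enters as separate genes, and neither was called in any comparison.

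**Figure D2:**
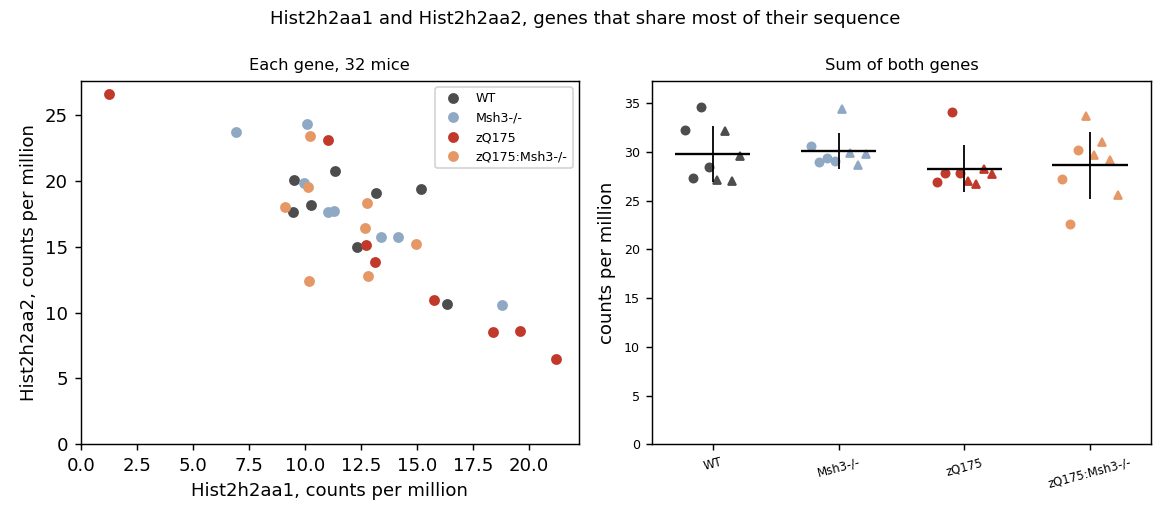
Left, CPM of Hist2h2aa2 against CPM of Hist2h2aa1 in the 32 mice, coloured by genotype, in which mice high in either gene are low in the other. Right, the summed CPM of both genes by genotype (circles, females; triangles, males; lines, mean ± SD, n = 8), which lies between 22.6 and 34.6 in every mouse.

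Promoters of 62 of the 70 genes were found in RefSeq on GRCm38.p6, as 63 windows from 250 bases before to 50 bases after an annotated start. No window was matched for Hist1h2bc. CCAAT, on either strand, lay in 85.7% of these windows against 37.4% of 32851 windows of all genes, and TATAAA in 55.6% against 13.6%. The octamer ATTTGCAT, which Oct1 binds in H2B promoters, lay in 22.2% against 1.74%, and was found in 7 of 18 H2A windows and 7 of 17 H2B windows but in none of H1, H3 or H4. AAACACA, a motif of H1 promoters, lay in 5 of 6 H1 windows and in 7.18% of all windows. CCAAT was in every H1, H2A, H2B and H3 window, and in 3 of 12 H4 windows. A match is a string of letters and not a site shown to be bound. The windows of Hist1h1c (chr13:23738557-23738856, plus strand) and Hist3h2a (chr11:58954435-58954734, plus strand) are printed because both genes were lower in zQ175 mice, with the motif letters, or their reverse complement, in capitals:
Hist1h1c: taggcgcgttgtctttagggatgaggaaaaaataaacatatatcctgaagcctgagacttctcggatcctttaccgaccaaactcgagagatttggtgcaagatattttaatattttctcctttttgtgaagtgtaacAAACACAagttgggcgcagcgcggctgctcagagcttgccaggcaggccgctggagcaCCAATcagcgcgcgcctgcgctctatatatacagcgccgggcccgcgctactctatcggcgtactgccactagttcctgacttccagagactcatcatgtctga
Hist3h2a: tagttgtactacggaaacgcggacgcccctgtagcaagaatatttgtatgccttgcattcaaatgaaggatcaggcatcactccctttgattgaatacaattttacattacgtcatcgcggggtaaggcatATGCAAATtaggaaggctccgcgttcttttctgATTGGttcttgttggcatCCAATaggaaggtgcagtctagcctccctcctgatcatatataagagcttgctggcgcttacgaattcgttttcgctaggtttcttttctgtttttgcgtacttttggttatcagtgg
The window of Hist1h1c held the H1 motif and CCAAT and that of Hist3h2a held the octamer, on the opposite strand, and CCAAT on both strands. Neither held TATAAA.

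Msh3 was counted at 24.5 ± 1.61 CPM in WT and 11.8 ± 1.2 in Msh3-/- mice, while zQ175 mice had 24.4 ± 1.53 and zQ175:Msh3-/- mice 12.9 ± 1.15 CPM (SD, n = 8 each), with no overlap, and counts of the gene include exons outside the edited stretch. Of 10 spiny neuron markers, 9 were lower in zQ175 than in WT mice, their summed level being 8035 to 9870 CPM in WT and 4397 to 5693 CPM in zQ175 mice. In bulk tissue, fewer cells of a type and less RNA per cell cannot be told apart, here and for each gene below. WT F1 and WT F4 had the highest summed levels of the cluster genes, and results that change without them are given below.

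In zQ175 mice, 4 cluster genes were lower than in WT mice and none was higher: the H2B gene Hist1h2bc, the H1 gene Hist1h1c, the H2A gene Hist3h2a and the H3 gene Hist2h3c2, with folds from 1.22 to 1.37. A gene was called by edgeR's quasi-likelihood test at a Benjamini-Hochberg adjusted p below 0.05 and a fold of at least 1.2. The 4 lower genes were among 19 tested, and over all 16610 genes tested 6.89% were lower by the same rule and 4.7% higher. The other 51 cluster genes did not pass the filter on low counts and held 1.89% of the cluster reads. The median log2 difference of the 19 was −0.24, against 0.01 over all genes, and 14 of the 19 were below 0, against 7806 of all 16610. Without the fold threshold 4 of 19 had an adjusted p below 0.05, against 26.5% of all genes. At an unadjusted p below 0.05 there were 7 of 19, against 36.5% of all genes.

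Hist1h2bc (ENSMUSG00000018102, chr13:23684199-23692908, plus strand) ranged from 55.2 to 63.4 CPM in WT mice with a median of 58.8, and from 40.5 to 51.1 CPM with a median of 45.3 in zQ175 mice. It was the only one of the 19 genes whose 2 groups did not overlap, as was the case for 6.63% of all genes. Its log2 difference was −0.36 (SE 0.05, edgeR adjusted p = 1.94e-06; exact two-sided permutation p = 0.000155, the smallest that 12870 arrangements of the mice can give). It remained called without each of the 32 mice in turn and under all other alternatives.

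Hist1h1c (ENSMUSG00000036181, chr13:23738808-23740367, plus strand) ranged from 36.1 to 54.5 CPM in WT mice with a median of 38.7, and from 26.0 to 36.2 with a median of 29.3 in zQ175 mice. WT F1 (53.2) and WT F4 (54.5) stood above the other WT mice, which were at most 40.2, and 7 of the 8 zQ175 mice lay below every WT mouse. The log2 difference was −0.46 (SE 0.11, edgeR adjusted p = 0.00133; exact two-sided permutation p = 0.000311), and −0.31 with an edgeR adjusted p of 0.0163 when WT F1 and WT F4 were left out. The other measured H1 gene, Hist1h1e, overlaps Hist1h2be on the same strand and was at 1.65 to 4.6 CPM in WT and 1.78 to 2.60 CPM in zQ175 mice, with a log2 difference of −0.46 (SE 0.20) that did not pass (edgeR adjusted p = 0.0927).

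Hist3h2a (ENSMUSG00000078851, chr11:58954685-58956830, plus strand) ranged from 36.4 to 50.2 CPM in WT mice with a median of 42.6 and from 31.7 to 39.1 with a median of 35.2 in zQ175 mice. The groups overlapped, with 5 of the 8 zQ175 mice below every WT mouse. The log2 difference was −0.28 (SE 0.06, edgeR adjusted p = 0.000282; exact two-sided permutation p = 0.000932), a 1.22-fold change close to the threshold. It fell below 1.2-fold without WT F1, without WT M3, without both WT F1 and WT F4 (−0.24, edgeR adjusted p = 0.0034), and on the TPM scale. Trim17, which overlaps it on the same strand, had a log2 difference of 0.03 (SE 0.08, edgeR adjusted p = 0.815).

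Hist2h3c2 (ENSMUSG00000081058, chr3:96238108-96239127, minus strand) ranged from 6.05 to 10.7 CPM in WT mice with a median of 7.22, and from 4.36 to 7.75 with a median of 5.44 in zQ175 mice. WT F1 was highest, and 5 of the 8 zQ175 mice lay below every WT mouse. The log2 difference was −0.42 (SE 0.13, edgeR adjusted p = 0.0116; exact two-sided permutation p = 0.00762). Without WT F1 and WT F4 it was −0.29 and did not pass (edgeR adjusted p = 0.108), which left 2 genes called, Hist1h2bc and Hist1h1c. Gm20634, a neighbour with which Hist2h3c2 shares sequence, was lower too, at 12.5 to 23.0 CPM in zQ175 against 21.2 to 27.1 in WT mice (log2 −0.34, SE 0.09, edgeR adjusted p = 0.00639). Gm20632, which shares sequence with Hist2h2aa1 and Hist2h2aa2, was also lower (−0.41, SE 0.13, edgeR adjusted p = 0.0134). Apart from these, 0 of the other 7 genes tested that lie between cluster genes was called. On the Msh3-null background 0 of these 9 genes were called.

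**Figure D3:**
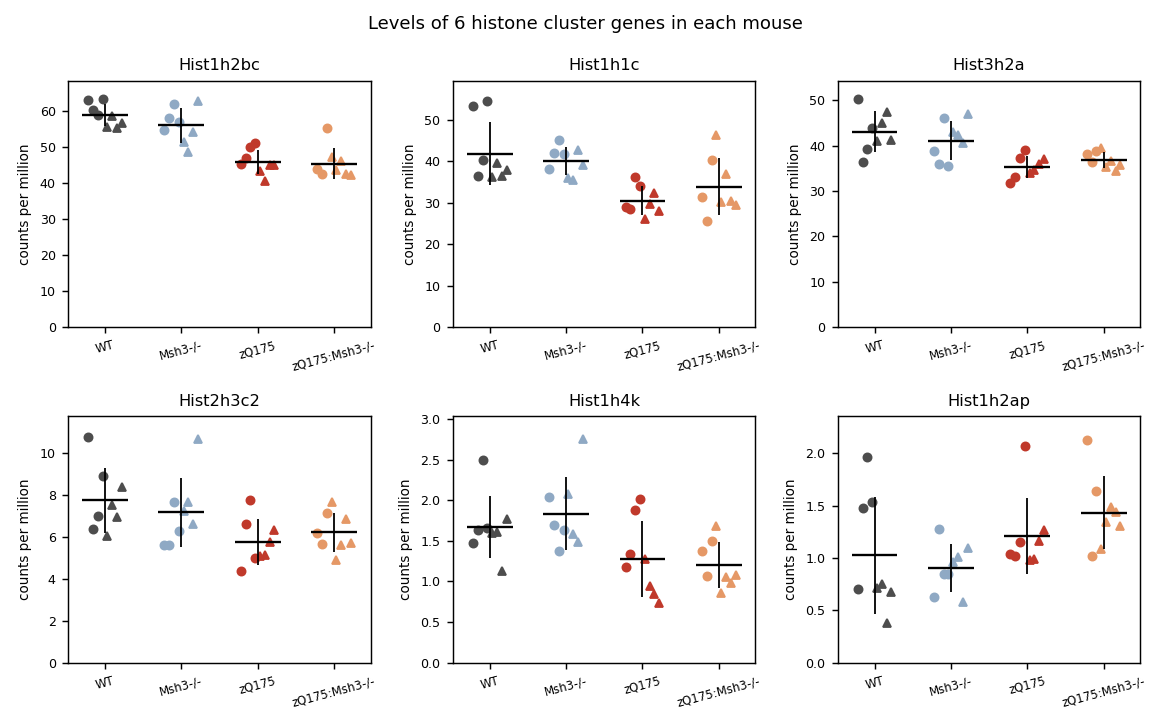
CPM of 6 histone cluster genes in each mouse by genotype (circles, females; triangles, males; horizontal lines, means; vertical lines, SD; n = 8), each on its own axis from 0. Hist1h2bc is lower in all zQ175 mice, at 40.5 to 51.1, than in all WT mice, at 55.2 to 63.4, while the groups overlap for the other genes.

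The other 15 genes tested did not pass the threshold. Among the H2B genes, Hist3h2ba was at 15.1 to 17.8 CPM in WT and 14.3 to 19.7 CPM in zQ175 mice (log2 0.04, SE 0.06) and Hist2h2be at 7.86 to 10.6 and 7.63 to 10.7 CPM (log2 −0.02, SE 0.08). These 2 genes had differences much closer to 0 than Hist1h2bc, and Hist2h2be shares no sequence of 75 bases with another gene. Hist1h2be had −0.09 (SE 0.12). Hist1h2bg, which shares sequence with Hist1h2bc, had the largest positive difference, at 0.62 (SE 0.26, edgeR adjusted p = 0.0697), from 0.448 ± 0.164 CPM in WT to 0.702 ± 0.289 in zQ175 mice (SD, n = 8 each), and it was called as higher by limma on the TPM scale with the filter on low values. The H4 genes lay at −0.39 (SE 0.19, Hist1h4k), −0.31 (SE 0.31, Hist1h4j), −0.24 (SE 0.12, Hist1h4i), −0.05 (SE 0.15, Hist1h4h) and 0.25 (SE 0.20, Hist2h4). The H2A gene Hist1h2ac had −0.22 (SE 0.18), and the H3 gene Hist1h3d had −0.40 (SE 0.29).

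On the Msh3-null background, zQ175 mice had lower levels of 2 of the 19 genes, Hist1h2bc and Hist1h4k, than mice without the knock-in allele. Over all genes tested, 5.96% were lower by this rule and 4.68% higher. Without the fold threshold 3 of 19 had an adjusted p below 0.05, against 24.1% of all genes, and none had groups that did not overlap, against 5.39%. The median log2 difference of the 19 was −0.06 against 0.01 over all genes, with 11 of 19 below 0, against 7713 of all 16610. The 2 zQ175 comparisons share no mice.

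Hist1h2bc ranged from 48.8 to 62.9 CPM in Msh3-/- mice with a median of 55.9 and from 42.4 to 55.3 CPM in zQ175:Msh3-/- mice with a median of 43.8. The groups overlapped through zQ175:Msh3-/- F3, the highest of its group. The log2 difference was −0.31 (SE 0.05, edgeR adjusted p = 4.3e-05), and it was called without each mouse in turn, but was under 1.2-fold on the TPM scale (−0.23 in the fit nearest to 0). Hist1h4k (ENSMUSG00000064288, chr13:21750194-21750505, minus strand), an H4 gene with a coding part only in the annotation, ranged from 1.37 to 2.76 CPM with a median of 1.66 in Msh3-/- mice and from 0.856 to 1.69 with a median of 1.08 in zQ175:Msh3-/- mice. The groups overlapped, with 5 of 8 zQ175:Msh3-/- mice below every Msh3-/- mouse. Its log2 difference was −0.60 (SE 0.19, edgeR adjusted p = 0.0179; exact two-sided permutation p = 0.00342), and without Msh3-/- M4 the edgeR adjusted p was 0.0589.

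Hist3h2a had an adjusted p below 0.05 but a smaller difference than the fold threshold (−0.16, SE 0.06, edgeR adjusted p = 0.0462), from 35.6 to 46.9 CPM in Msh3-/- to 34.3 to 39.6 CPM in zQ175:Msh3-/- mice. Hist1h1c had −0.25 (SE 0.11, edgeR adjusted p = 0.0878) and Hist2h3c2 −0.21 (SE 0.13, edgeR adjusted p = 0.256). Without zQ175:Msh3-/- M1, whose Hist1h1c level of 46.4 CPM was the highest of its group, Hist1h1c was called too (−0.33, edgeR adjusted p = 0.015) and 4 genes were called in all, with Hist1h2ap higher. Hist1h2ap, an H2A gene, ranged from 1.02 to 2.13 CPM in zQ175:Msh3-/- mice, against 0.577 to 1.28 CPM in Msh3-/- mice, with 6 of 8 above every Msh3-/- mouse, but its log2 difference of 0.62 (SE 0.24) missed the threshold (edgeR adjusted p = 0.054). It passed with sex in the model (0.68, edgeR adjusted p = 0.0223) and on the TPM scale, but had 0.33 (edgeR adjusted p = 0.398) with the level of RNAs without a poly(A) tail, described below, in the model.

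**Figure D4:**
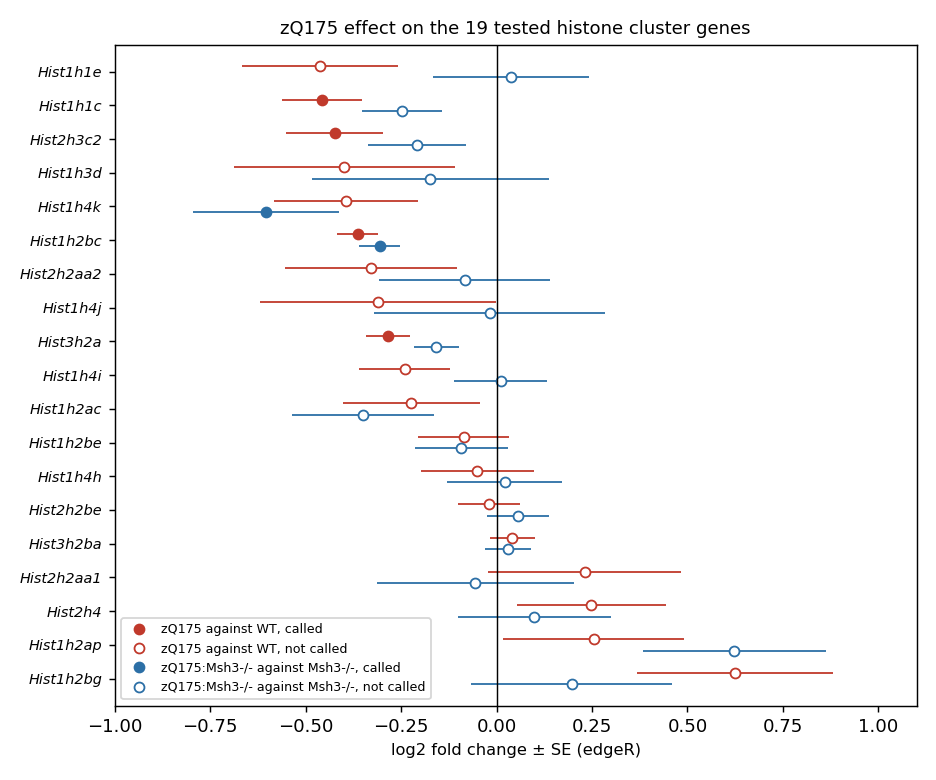
Log2 fold change ± SE from edgeR for the 19 tested histone cluster genes, zQ175 against WT (red) and zQ175:Msh3-/- against Msh3-/- (blue), with filled points for called genes. Hist1h2bc is called in both, at −0.36 and −0.31, and Hist1h2bg and Hist1h2ap have the largest positive values, at 0.62 each.

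The zQ175 effect on the 19 genes was not found to depend on Msh3 genotype. By edgeR, the interaction called 0 of 19 genes and 0 of all genes, with 0 of the 19 at an unadjusted p below 0.05, against 4.44% of all genes, and DESeq2 also called 0 of 19. The interaction nearest to the threshold was that of Hist1h1e (log2 0.50, SE 0.29, edgeR adjusted p = 0.999), and that of Hist1h1c was 0.21 (SE 0.15, edgeR adjusted p = 0.999). A p that misses the threshold does not show that the 2 effects are alike.

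Loss of Msh3 was also compared within each Htt genotype. Between Msh3-/- and WT mice edgeR called 0 of the 19 genes, against 0.00602% of all genes, Msh3 itself, with 0 of 19 at an unadjusted p below 0.05 against 5.09% of all genes, and DESeq2 called 0. Between zQ175:Msh3-/- and zQ175 mice the counts were also 0 by both tools, again with 0.00602% of all genes called, and 0 at an unadjusted p below 0.05 against 3.7% of all genes. No gene of the 19 had groups that did not overlap in either comparison, against 0.0241% and 0.012% of all genes. Median log2 differences were −0.07 and near 0 respectively, with the median over all genes near 0 in both. For Hist1h2bc the log2 difference was −0.07 (SE 0.05) without and −0.01 (SE 0.05) with the zQ175 allele, and for Hist1h1c −0.06 (SE 0.10) and 0.15 (SE 0.11). The largest differences in size were −0.37 (SE 0.29, Hist1h3d) in Msh3-/- against WT mice and 0.34 (SE 0.31, Hist1h4j) in zQ175:Msh3-/- against zQ175 mice.

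The summed level of all 70 genes was 240.6 ± 20.5 CPM in WT, 231.3 ± 11.9 in Msh3-/- and 202.6 ± 15.8 in zQ175 mice, and zQ175:Msh3-/- mice had 207.9 ± 19.7 (SD, n = 8 each), and the ranges overlapped between WT (219 to 273) and zQ175 (186 to 227). By family, the sums in WT and zQ175 mice were 45.3 ± 8.85 and 33.1 ± 3.79 CPM for H1 and 76.2 ± 5.61 and 66.9 ± 4.36 for H2A. They were 99.3 ± 6.49 and 86.1 ± 7.0 for H2B, 9.24 ± 1.48 and 6.88 ± 1.35 for H3 and 10.5 ± 1.2 and 9.68 ± 1.71 for H4 (SD, n = 8 each). The H4 means differed by less than either SD. In Msh3-/- and zQ175:Msh3-/- mice the means were 43.1 and 36.9 for H1, 74.4 and 68.8 for H2A, 95.3 and 84.9 for H2B, 8.37 and 7.27 for H3 and 10.1 and 9.99 for H4. Most of each sum comes from the genes named above. The 51 genes that did not pass the filter summed to 4.36 ± 0.968 CPM in WT and 3.98 ± 0.956 CPM in zQ175 mice.

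RNAs that normally lack a poly(A) tail were used as a gauge of tail-less RNA in the libraries. Their sum over 22 listed genes, which counts the indistinguishable Rn7s1 and Rn7s2 both, was 18.0 to 152 CPM in WT, 19 to 131 in Msh3-/- and 45.4 to 202 in zQ175 mice, and from 39.3 to 229 with both alleles. Its medians were 43.8, 38.3, 73.2 and 131 CPM, higher in both zQ175 groups. Most of the sum came from Rn7s1, Rn7s2 and Rn7sk, at means of 27.6, 27.6 and 12.2 of 70.3 CPM in WT mice. It is therefore mainly a gauge of these RNAs and not of all 22. Because this sum differed with genotype, a model with both cannot fully tell the 2 apart. The part of tail-less RNA in the calls was not tested. Of the 5 tested, 0 were called between zQ175 and WT mice by edgeR, and 3 were higher between zQ175:Msh3-/- and Msh3-/- mice. These were Rn7s1 and Rn7s2 (log2 1.34, SE 0.43) and Rpph1 (1.42, SE 0.45). Rn7s1 and Rn7s2 had the same mean, SD and range in every group and are not separate measurements. With the log2 of this sum as a term of the model, chosen after seeing the data, Hist1h2bc, Hist1h1c and Hist2h3c2 stayed called between zQ175 and WT mice at −0.35, −0.41 and −0.38, and Hist3h2a fell below 1.2-fold. On the Msh3-null background Hist1h2bc was the only gene called (−0.28, edgeR adjusted p = 0.000639), and Hist1h4k had an edgeR adjusted p of 0.0859. No cluster gene had a term with adjusted p below 0.05, against 1.87% of all genes. The smallest adjusted p values were those of Hist3h2a, at −0.06 log2 per doubling (SE 0.02, edgeR adjusted p = 0.157), and Hist1h2ap, at 0.23 (SE 0.09, edgeR adjusted p = 0.199).

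**Figure D5:**
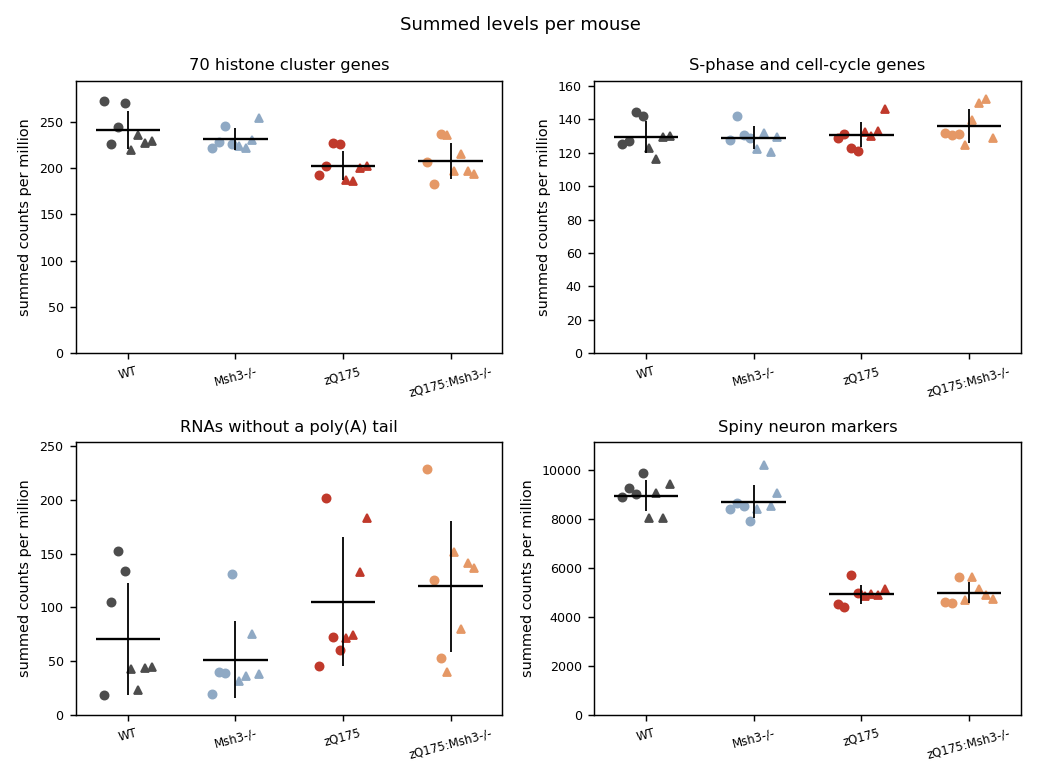
Summed CPM per mouse by genotype for the 70 histone cluster genes, listed S-phase and cell-cycle genes, listed RNAs without a poly(A) tail and listed spiny neuron markers (circles, females; triangles, males; lines, mean ± SD, n = 8), each on its own axis from 0. The cluster genes average 240.6 in WT and 202.6 in zQ175 mice, and the S-phase genes 129.7 and 130.8.

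Genes that make, process or replace the cluster histones were examined next. Over all genes tested, edgeR called 4.7% higher and 6.89% lower between zQ175 and WT mice. On the Msh3-null background these shares were 4.68% and 5.96%. Of 27 tested genes for histone mRNA processing and turnover, edgeR called 1 higher and 2 lower between zQ175 and WT mice: Lsm11, a protein of the U7 particle (6.33 to 10.8 CPM in WT and 7.47 to 12.5 in zQ175 mice, log2 0.35, SE 0.12, adjusted p = 0.0315), Celf1, an RNA-binding protein of mRNA turnover (−0.32, SE 0.04), and Srrt, a cap-associated factor (−0.30, SE 0.05). Slbp had 0.15 (SE 0.06, edgeR adjusted p = 0.0972), Npat, the coactivator of histone gene transcription, 0.13 (SE 0.05, edgeR adjusted p = 0.0587) and the exonuclease Eri1 was near 0 (SE 0.07). Celf1 and Srrt were lower on the Msh3-null background too, at −0.29 (SE 0.04) and −0.33 (SE 0.05), and Lsm11 had 0.12 (SE 0.12) there.

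Of 11 tested replacement histone genes outside the clusters, edgeR called 0 between zQ175 and WT mice. At an unadjusted p below 0.05 there were 5, against 36.5% of all genes. Between zQ175:Msh3-/- and Msh3-/- mice 1, H2afx, was lower (−0.29, SE 0.04). Between zQ175 and WT mice H2afx had −0.16 (SE 0.04, edgeR adjusted p = 0.00265), under the fold threshold. H3f3a and H3f3b, which encode H3.3, had log2 differences of 0.08 and 0.04 (SE 0.04 each) between zQ175 and WT mice, H2afz −0.07 (SE 0.03) and the linker histone H1f0 −0.05 (SE 0.06). Of 23 tested histone chaperones, 0 were called between zQ175 and WT mice, with 12 at an unadjusted p below 0.05 against 36.5% of all genes. On the Msh3-null background 1, Hjurp, was higher (0.32, SE 0.03). Hjurp had 0.25 (SE 0.03, edgeR adjusted p = 5.96e-07) between zQ175 and WT mice, also under the fold threshold. The S-phase and cell-cycle list had 0 of 22 called between zQ175 and WT mice, with 1 at an unadjusted p below 0.05 against 36.5% of all genes. On the Msh3-null background 1, Birc5, was higher (0.73, SE 0.27, edgeR adjusted p = 0.0435). Mki67, Top2a and Pcna had −0.13 (SE 0.18), −0.08 (SE 0.27) and 0.09 (SE 0.04) between zQ175 and WT mice.

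Markers of other striatal cells were counted beside these results. Of 10 genes each, 4 endothelial markers were lower between zQ175 and WT mice, 1 astrocyte marker was higher and 1 lower, 1 oligodendrocyte marker was lower, and 0 markers of oligodendrocyte precursors, microglia or ependymal and choroid cells were called. Over all genes tested, 4.7% were higher and 6.89% lower by the same rule. All 10 genes of each marker list passed the filter. Log2 differences were below 0 for 10 of 10 endothelial, 10 of 10 ependymal and choroid, 9 of 10 microglial, 8 of 10 astrocyte, 6 of 10 oligodendrocyte and 5 of 10 precursor markers. Over all genes tested this held for 7806 of 16610. The astrocyte sum was 4457 to 4739 CPM in WT and 3830 to 4065 in zQ175 mice, with no overlap. Its means were 4592 and 3942 CPM, and much of each was Slc1a2, at 2797 and 2272 CPM. S100b went the other way, from 99.8 to 129.8 CPM. The median log2 difference of the 10 astrocyte markers was −0.11. The ranges overlapped for the endothelial sum, at 277 to 315 CPM in WT and 210 to 280 in zQ175 mice, and for the microglial sum, at 459 to 537 and 437 to 487 CPM. They also overlapped for the ependymal and choroid sum (67.8 to 1629 and 67.4 to 1891 CPM), the oligodendrocyte sum (9121 to 11200 and 7306 to 11640 CPM) and the precursor sum (401 to 466 and 388 to 529 CPM). On the Msh3-null background 1 endothelial marker was lower. There 0 astrocyte, oligodendrocyte, precursor, microglial or ependymal and choroid markers were called. Which cells the cluster histone RNA came from, and the part of any of the marker shifts in the 4 calls between zQ175 and WT mice, was not tested.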

How the data were processed

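Per the files, the authors supplied raw read counts of every gene in each of the 32 mice, and a second deposited table, named FPKM, whose columns each sum to 1000000 and which was treated as TPM. The labels give GRCm38.p6; the aligner, counting program and strand setting are not given in the sources used here. All genes were fitted with edgeR 4.0.16 in R 4.3.3 (TMM, filter by expression, robust quasi-likelihood, 1 model of 4 genotypes), which tested 16610. Members and lists were chosen with earlier results of these data known. The text names members with an adjusted p below 0.05, the 10 highest by TPM, the next by unadjusted p up to 20, and stated H1, Hist3, Hist4 and testis genes. Hist1h2ah, Hist1h2an, Hist1h2ao, Hist2h3c1, Trim17, Rn7s1, Rn7s2, Rn7sk, Rpph1, Gm20632, Gm20633, Gm20634, Hist2h3b, H2afx, Hjurp and Birc5 were named after their values were seen. Alternatives were DESeq2 1.42.0, limma 3.58.1 on log2 TPM with a pseudocount of 0.1 or 1, which understates changes of low genes, other scalings, filters and covariates, and each mouse left out. Stem-loops and shared 75-base stretches were sought in GENCODE M21 transcripts, and promoter letters in RefSeq windows. The fits were tested on simulated data for zQ175 against WT mice, with 200 genes changed 2-fold. Each of edgeR, DESeq2 and limma recovered 99.5% of these, with 7, 9 and 6 false calls. The changed genes left out those with low counts, and folds as small as those called here were not simulated.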

Additional observations from a re-analysis of the deposited data

Results flagged for a closer look

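Among 88 sets of 8 mice (19 genes and 3 summed levels in 4 genotypes, on the log2 scale), 4 held a mouse whose gap to the next, as a share of the range, exceeded the value that Dixon's 95% limit sets for 8 mice, where chance gives about 4.4. Hist2h2aa1 was lowest in zQ175 F2, at 1.26 CPM against 11 to 21.2 in the other zQ175 mice, a gap of 0.767 of the range, and the sum with Hist2h2aa2 in that mouse lay within its group. Hist1h2ap was highest in zQ175 F4, at 2.08 CPM against 0.98 to 1.27 (gap 0.657). Hist1h1e was lowest in Msh3-/- M1, at 1.44 CPM against 2.31 to 2.95 (gap 0.655). Hist1h2bc was highest in zQ175:Msh3-/- F3, at 55.3 CPM against 42.4 to 47.4 (gap 0.58).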

How the results depend on the processing

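Between zQ175 and WT mice, 4 genes were called under DESeq2, RLE size factors, no filter, a minimum of 10 counts in all mice, a term for sex, a fit to the compared groups alone, no fold threshold and near-identical copies added together, and each mouse left out gave 3 to 6 calls. Without both WT F1 and WT F4, chosen after seeing the data, 2 were called. Between zQ175:Msh3-/- and Msh3-/- mice, each mouse left out gave 1 to 4 calls, from 1 without Msh3-/- M4, which lost Hist1h4k, to 4 without zQ175:Msh3-/- M1, limma on log2(TPM + 1) gave 5, of which 3 were higher and Hist1h2bc was not called, and the term for RNAs without a poly(A) tail, also chosen after seeing the data, gave 1. The causes were not tested. Both comparisons of Msh3 loss and the interaction gave 0 calls without each mouse in turn. Over all genes, 40.6% of calls between zQ175 and WT mice were higher in counts and 59.9% by limma on log2(TPM + 0.1), and on the Msh3-null background 44.0% and 68.5%, with medians of all genes 0.07 and 0.09 on the TPM scale. The median log2 difference of the cluster genes between zQ175 and WT mice stayed between −0.29 and −0.18 without each mouse, and on the Msh3-null background between −0.11 and −0.02, against −0.08 to 0.01 under the other alternatives. Between Msh3-/- and WT mice it ranged from −0.09 to −0.02 without each mouse, and between zQ175:Msh3-/- and zQ175 mice from −0.02 to 0.03. Replicate numbers did not pair the mice: 12 of 45 same-numbered pairs correlated above 0.1 (−0.134 to 0.275) and 9 correlated best with their own number. With the replicate number as a block, 4 genes were called between zQ175 and WT mice, 3 between zQ175:Msh3-/- and Msh3-/- mice and 0 in the other comparisons. Depth limits the 51 genes below the filter, and assignment of shared reads limits single copies.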
